A study of Homo sapiens with 4 samples.

Results

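The ATF4 program and its genes of amino acid metabolism were examined in SAPCD2-knockdown neuroblastoma cells. The 37 genes were taken as a list of ATF4/CHOP stress factors, serine and one-carbon enzymes, amino acid transporters and related ATF4 targets, and were matched by GENCODE symbol to the 64252 genes of the count table. All 37 were found, and all 37 were among the 18779 genes that had enough counts to be tested.

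RNA was sequenced from SK-N-BE(2) cells, an established human neuroblastoma line with MYCN amplification, with 2 libraries in each of the 2 groups. The control group (sh-Scb) carried a scrambled shRNA and the knockdown group (sh-SAPCD2) carried an shRNA against SAPCD2. Neither group had another treatment in the labels, and no time after transfer of the shRNA is given there. Lentiviral shRNA and puromycin selection are described for the stable lines of the study, and 2 shRNAs against SAPCD2 were used in it, of which the labels do not name the one sequenced. The labels do not say that libraries of a group came from separate cultures, so the p-values measure only the spread between these libraries, which may be technical.

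ATF4 is a transcription factor whose mRNA is translated more efficiently when the initiation factor eIF2 is phosphorylated by one of its kinases, as happens when amino acids are scarce or proteins misfold in the endoplasmic reticulum. It binds DNA as a dimer with C/EBP family proteins at a composite element and raises the transcription of genes for amino acid uptake, for the synthesis of serine, glycine, asparagine and proline, for cysteine supply and for feedback on the stress response itself. Its own activity is set largely by translation, so the mRNA of ATF4 need not follow the activity of the protein.

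The element that ATF4 and C/EBP proteins bind has the core TGATGNAA, of which the reverse complement is TTNCATCA. The cores in the members' promoters are shown here as a sequence feature that can be set beside the fold changes. The members were not searched out by the core, but they were listed as genes of the ATF4 program. A larger share with the core than over all genes may thus be built into the list. Both strands were searched, and the core overlaps no other motif searched. In RefSeq promoter windows of 300 bases on GRCh38.p14, which run from 250 bases before to 50 bases after a transcript start, a window was held for 29 members, and 9 of these (31.0%) had the core. Of 27305 genes with a window, 1217 (4.46%) had it. Counted by window, 11 of the members' 49 (22.4%) and 1270 of all 35116 (3.62%) had it. Each sequence below reads 5′ to 3′ on the strand of the gene, with the core in capitals.
ASNS, chr7:97872453-97872492, minus strand: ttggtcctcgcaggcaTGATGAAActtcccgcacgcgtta
ATF3, chr1:212565200-212565239, plus strand: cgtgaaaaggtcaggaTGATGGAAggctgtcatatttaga
CEBPG, chr19:33374055-33374094, plus strand: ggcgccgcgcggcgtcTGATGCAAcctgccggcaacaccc
CHAC1, chr15:40953246-40953285, plus strand: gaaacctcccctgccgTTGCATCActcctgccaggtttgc
MTHFD1L, chr6:150866341-150866380, plus strand: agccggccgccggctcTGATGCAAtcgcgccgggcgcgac
SLC1A4, chr2:64989376-64989415, plus strand: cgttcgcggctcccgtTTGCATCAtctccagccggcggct
SLC1A5, chr19:46784888-46784927, minus strand: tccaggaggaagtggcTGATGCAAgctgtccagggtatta
SLC3A2, chr11:62881720-62881748, plus strand: taatgtgcaggactccTTACATCAgctcc
SLC7A1, chr13:29595658-29595697, minus strand: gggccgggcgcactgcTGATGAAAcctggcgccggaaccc
The core lay on the strand of the gene in 6 of the 9 and on the opposite strand in CHAC1, SLC1A4 and SLC3A2, and the SLC3A2 sequence ends where its window ends. A match describes letters in a window and not a bound site, and a window without one says nothing about ATF4. NUPR1, EIF4EBP1, PSPH, SHMT2, ALDH1L2, PYCR1, GPT2 and SLC7A11 had no window.

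Depth was 27423014 and 27430468 counts in the sh-Scb libraries, with 25347900 and 31850997 in those of sh-SAPCD2, and 3 counts, taken as the smallest detectable amount, equaled 0.0955 to 0.119 CPM (counts relative to library size after TMM scaling), a limit that covers counting error only. SAPCD2 itself was at 83.6 and 82.2 CPM in the control group and at 35.4 and 52.5 CPM in the knockdown group, a log2 fold change of -0.91 (SE 0.193, adjusted p = 0.0206, edgeR). All 10 markers of adrenergic neuroblastoma were at 1 CPM or more in every library, ISL1, DBH and STMN2 were among those that fell, and MYCN rose 2.03-fold (log2 fold change 1.02, adjusted p = 0.00378). In bulk RNA, fewer cells of a type and less RNA per cell cannot be told apart. Of 12 markers of blood, endothelium, fibroblasts, epithelium, liver and Schwann cells, CD3E and KRT5 were at 0 throughout, and their sum was 54.3 to 57.6 CPM in the control group and 51.3 to 53.5 CPM in the sh-SAPCD2 group, with DCN the highest at 21.8 to 30.9 CPM. In contrast to the sum, the endothelial marker VWF rose (0.0724 and 0.0727 against 0.553 and 0.892 CPM, adjusted p = 0.017). The macrophage marker CD68 also rose (0.0362 and 0.0727 against 0.435 and 0.382 CPM, adjusted p = 0.0372). Both rose from below the smallest detectable amount and stayed under 1 CPM. Other annotated genes, also on its own strand, overlap 85.6% of the exonic bases of CD68. The part of any of these markers in the results was not tested.

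The ATF4 program did not move as a block. In SAPCD2-knockdown cells 12 of the 37 genes rose, 4 fell and 21 did not pass the test (adjusted p under 0.05, edgeR quasi-likelihood test, Benjamini-Hochberg over all tested genes). Stress genes (DDIT3, CEBPB, TRIB3, SESN2, GDF15), the cystathionine enzyme CTH and the transporters of cystine, large neutral amino acids and glutamine (SLC7A11, SLC7A5, SLC3A2, SLC1A5) rose, together with PSAT1 and ALDH18A1. PSPH, SLC1A4, SLC38A2 and EIF4EBP1 fell. ATF4 mRNA itself and the classical target ASNS were among the genes that did not pass.

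The rise in 12 genes is 32.4% of the members, where 12.4% of all tested genes rose, and the fall in 4 is 10.8%, where 12.5% of all tested genes fell. With an absolute log2 fold change over 1 as well, the rule for a differentially expressed gene (DEG), 9 members were higher, where 4.69% of all tested genes were, and 2 were lower, where 5.15% were. Both knockdown libraries lay above both control libraries for 21 members, as for 33.5% of all tested genes, and below them for 12, as for 33.4%. PHGDH, PYCR1, SLC6A9 and VLDLR overlapped between the groups. The median log2 fold change was 0.29 over the members and 0.02 over all tested genes, and the median of its size without sign was 0.62 against 0.41. The member counts shifted with single libraries: 11 rose and 3 fell without sh-Scb 1, 10 and 3 without sh-Scb 2, 17 and 9 without sh-SAPCD2 1, and 14 and 11 without sh-SAPCD2 2, while 1176 to 4396 of all genes rose and 1146 to 4014 fell in these fits.

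**Figure D1:**
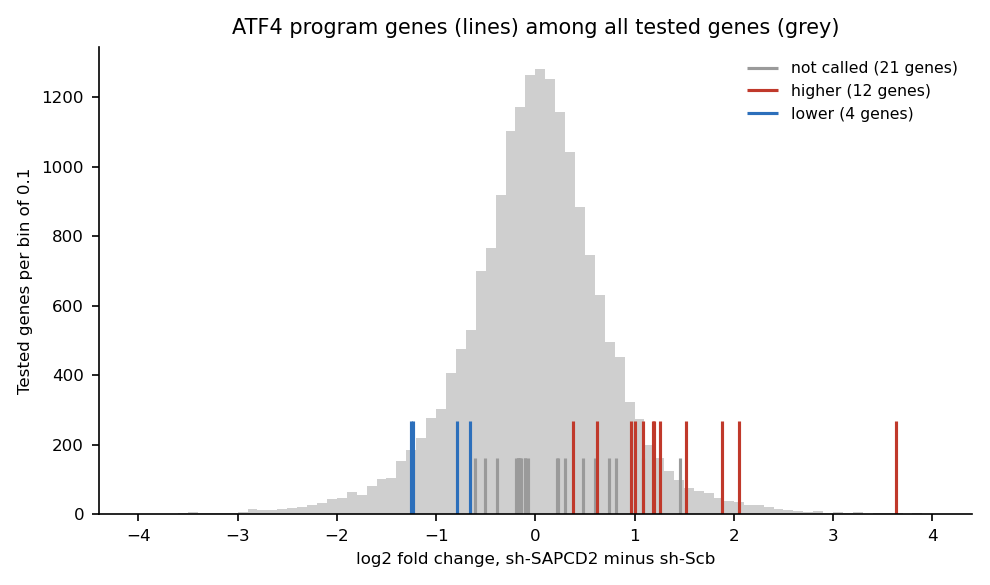
Number of tested genes in bins of log2 fold change (sh-SAPCD2 minus sh-Scb, grey, genes within 4 on either side), with 1 vertical line per ATF4 program gene, colored by whether it rose (12), fell (4) or did not pass (21). The lines run from -1.25 (PSPH) to 3.63 (GDF15), and 21 of the 37 lie above 0.

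Of the 7 transcription factors of the program, DDIT3 and CEBPB rose (28.6%) and the other 5 did not pass. Of all tested genes, 12.4% rose and 12.5% fell. ATF4 (chr22:39519695-39522683) was at 465 and 465 CPM in the control group and at 411 and 413 CPM in the knockdown group. Its groups did not overlap and its log2 fold change was -0.17 (95% confidence interval -0.39 to 0.04, adjusted p = 0.203). Per kilobase of canonical transcript, ATF4 was the most abundant member in both groups, at 328 and 291 CPM per kb. ATF4 passed the test when either knockdown library was left out (adjusted p = 0.0094 without sh-SAPCD2 1 and 0.0109 without sh-SAPCD2 2, at a log2 fold change of -0.17 and -0.18), fits in which the lone knockdown library is assumed to vary like the controls.

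DDIT3, which encodes CHOP, the factor that acts downstream of ATF4 in prolonged stress, was at 9.16 and 8.18 CPM in the control group and at 19.3 and 20.2 CPM in the knockdown group. It rose 2.28-fold (log2 fold change 1.19, SE 0.153, adjusted p = 0.00556), and its libraries differed little within a group. The exons of DDIT3 (chr12:57516588-57521737, minus strand) share 31.6% of their bases with the antisense genes MARS1 and MBD6, and the strand setting of the counting is not given in the sources used here. MARS1 was at 148 CPM in the control group and 145 CPM in the knockdown group (adjusted p = 0.849) and MBD6 fell (36.1 to 21.1 CPM, adjusted p = 0.00973).

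CEBPB, the C/EBP factor that pairs with ATF4 and takes part in inflammation and adipogenesis, was at 33.4 and 28.4 CPM in the control group and at 55.3 and 86.7 CPM in the knockdown group. It rose 2.30-fold (log2 fold change 1.20, SE 0.228, adjusted p = 0.0153), with a wide gap between the knockdown libraries. CEBPB (chr20:50190830-50192668) passed in 11 of 12 alternatives and not without a filter on low counts (adjusted p = 0.0618).

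ATF3, a repressor induced by many stresses, was at 4.02 and 2.29 CPM in the control group and at 7.74 and 5.70 CPM in the knockdown group, a log2 fold change of 1.09 (adjusted p = 0.0569). It did not overlap between the groups and lay close to the threshold. ATF3 passed with DESeq2 (adjusted p = 0.0181), after correction for GC content and length (adjusted p = 0.0312), without sh-Scb 1 (1.55, adjusted p = 0.00375) and without sh-SAPCD2 2 (1.30, adjusted p = 0.0394), and did not pass without sh-Scb 2 (0.74, adjusted p = 0.22) or without sh-SAPCD2 1 (0.85, adjusted p = 0.125). CEBPG, a partner of ATF4 with no activation domain of its own, was at 35.8 and 37.03 CPM against 28.3 and 27.3 CPM (log2 fold change -0.39, adjusted p = 0.0635), and it passed without sh-SAPCD2 1 (adjusted p = 0.017) and without sh-SAPCD2 2 (adjusted p = 0.0305). ATF5, a relative of ATF4 that acts in mitochondrial stress, was at 7.42 and 5.31 CPM against 4.98 and 4.01 CPM (log2 fold change -0.50, adjusted p = 0.191). NUPR1, a small chromatin protein of the stress response, had only 6 and 5 counts in the sh-Scb libraries, against 17 and 14 in the knockdown group (log2 fold change 1.45, SE 0.555, adjusted p = 0.106). Low counts therefore limited what could be detected for NUPR1.

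**Figure D2:**
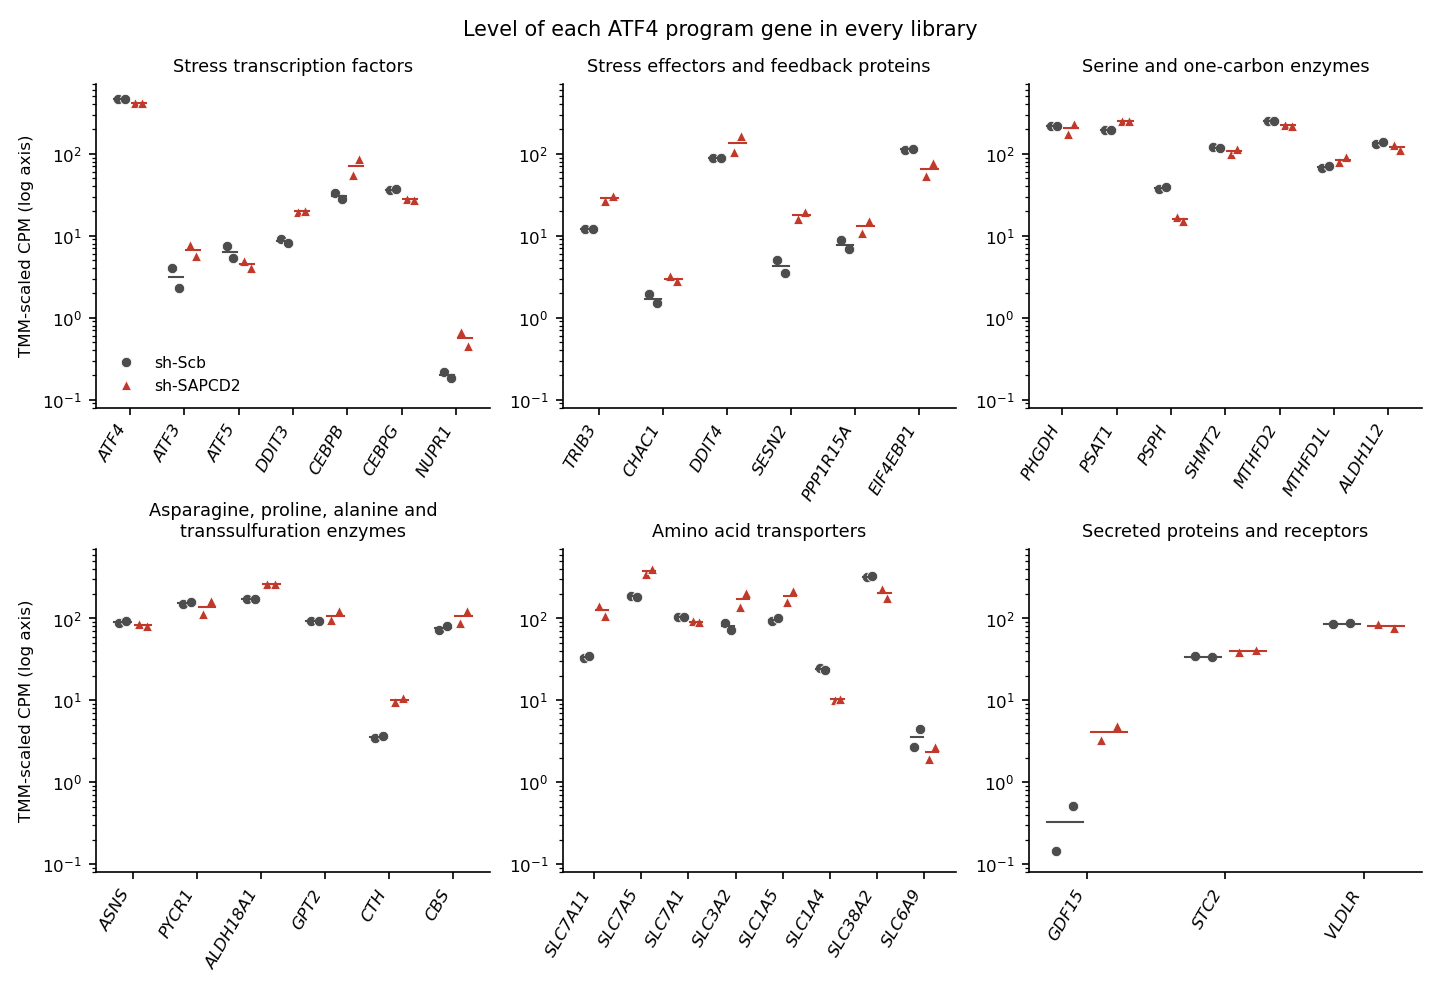
Level of each of the 37 genes in every library, as TMM-scaled CPM on a log axis, by role. Circles are the 2 sh-Scb libraries, triangles the 2 sh-SAPCD2 libraries and short lines the group means. GDF15 shows the widest gap between groups (0.145 and 0.509 against 3.32 and 4.87 CPM), and the levels of ATF4, ASNS and VLDLR lie close together in all 4 libraries.

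Among the 6 effectors and feedback proteins, SESN2 and TRIB3 rose (33.3%), EIF4EBP1 fell (16.7%) and 3 did not pass. The shares over all tested genes were 12.4% and 12.5%. SESN2, a leucine-binding sestrin that restrains mTORC1 when amino acids are low, was at 5.07 and 3.53 CPM in the control group and at 16.2 and 19.4 CPM in the knockdown group. It rose 4.14-fold (log2 fold change 2.05, SE 0.230, adjusted p = 0.00406), the largest change in this role group. TRIB3, a pseudokinase that is induced by CHOP and ATF4 and dampens both, was at 12.02 and 11.9 CPM against 26.3 and 30.8 CPM and rose 2.39-fold (log2 fold change 1.25, SE 0.148, adjusted p = 0.00454). SESN2 lies at chr1:28259518-28282491 and TRIB3 at chr20:362835-397559, and both passed in all 12 alternatives.

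EIF4EBP1, which encodes the translation repressor 4E-BP1, was at 111 and 115 CPM in the control group and at 53.6 and 76.7 CPM in the knockdown group. It fell to 57.8% of the control level (log2 fold change -0.79, SE 0.178, adjusted p = 0.025), and it did not pass without a filter on low counts (adjusted p = 0.0856). The direction was thus opposite to that of TRIB3 and SESN2.

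DDIT4, which encodes the mTORC1 inhibitor REDD1, was at 88.5 and 88.7 CPM in the control group and at 105 and 165 CPM in the knockdown group (log2 fold change 0.60, adjusted p = 0.0839). PPP1R15A, which encodes GADD34, the stress-induced subunit of the eIF2 phosphatase, was at 8.76 and 6.87 CPM against 10.8 and 15.3 CPM (0.74, adjusted p = 0.0661). CHAC1, a glutathione-degrading enzyme, was at 1.92 and 1.49 CPM against 3.20 and 2.80 CPM (0.81, adjusted p = 0.0785). In all 3 genes both knockdown libraries were above both control libraries, as for 33.5% of all tested genes, but the knockdown libraries of DDIT4 were far apart. DDIT4 passed without sh-SAPCD2 1 (0.89, adjusted p = 0.000233) and without sh-SAPCD2 2 (0.24, adjusted p = 0.0122), and PPP1R15A without sh-SAPCD2 1 (0.96, adjusted p = 0.0136). Both also passed with DESeq2 (adjusted p = 0.0108 for DDIT4 and 0.0306 for PPP1R15A).

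The serine and one-carbon enzymes did not move together. The 3 enzymes that make serine from a glycolytic intermediate gave 3 different results. PHGDH, the first enzyme, was at 219 and 217 CPM in the control group and at 175 and 232 CPM in the knockdown group (log2 fold change -0.10, 95% confidence interval -0.46 to 0.26, adjusted p = 0.65), with overlapping groups. PSAT1 (chr9:78297125-78330093), the second enzyme, was at 196 and 195 CPM against 253 and 254 CPM and rose 1.30-fold (log2 fold change 0.38, SE 0.0917, adjusted p = 0.0312). PSPH (chr7:56011051-56051604, minus strand), the phosphatase that releases serine, was at 37.3 and 39.4 CPM against 17.1 and 15.1 CPM and fell to 41.9% of the control level (log2 fold change -1.25, SE 0.138, adjusted p = 0.00391).

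The call on PSAT1 was the weaker of these. It was lost without sh-Scb 1 (adjusted p = 0.443), without sh-Scb 2 (adjusted p = 0.456) and without a filter on low counts (adjusted p = 0.0636), while PSPH passed in all 12 alternatives. The direction of PHGDH changed without sh-SAPCD2 1 (0.08, adjusted p = 0.112), and PHGDH passed as lower without sh-SAPCD2 2 (-0.31, adjusted p = 0.0025). Pseudogenes of PSAT1 and PSPH exist, and the treatment of reads with several matches is not given in the sources used here.

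The mitochondrial folate enzymes downstream of serine did not pass. SHMT2, which splits serine into glycine and a one-carbon unit, was at 121 and 116 CPM against 99.6 and 114 CPM (log2 fold change -0.15, adjusted p = 0.357), and MTHFD2, the next enzyme, was at 253 and 248 CPM against 227 and 221 CPM (-0.16, 95% confidence interval -0.39 to 0.06, adjusted p = 0.237). MTHFD1L, which releases formate, was at 67.4 and 71.1 CPM against 79.4 and 90.4 CPM (0.29, adjusted p = 0.116), and ALDH1L2, which oxidizes the one-carbon unit to carbon dioxide, was at 132 and 137 CPM against 129 and 111 CPM (-0.17, adjusted p = 0.318). The groups did not overlap in any of the 4, and the differences were small. Over all tested genes, both knockdown libraries lay above both control libraries for 33.5% and below them for 33.4%. With a knockdown library left out some passed: without sh-SAPCD2 1, MTHFD2 (-0.19, adjusted p = 0.0112), MTHFD1L (0.38, adjusted p = 0.00574) and ALDH1L2 (-0.29, adjusted p = 0.00634), and without sh-SAPCD2 2, MTHFD2 (-0.14, adjusted p = 0.0289) and SHMT2 (-0.25, adjusted p = 0.0126).

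**Figure D3:**
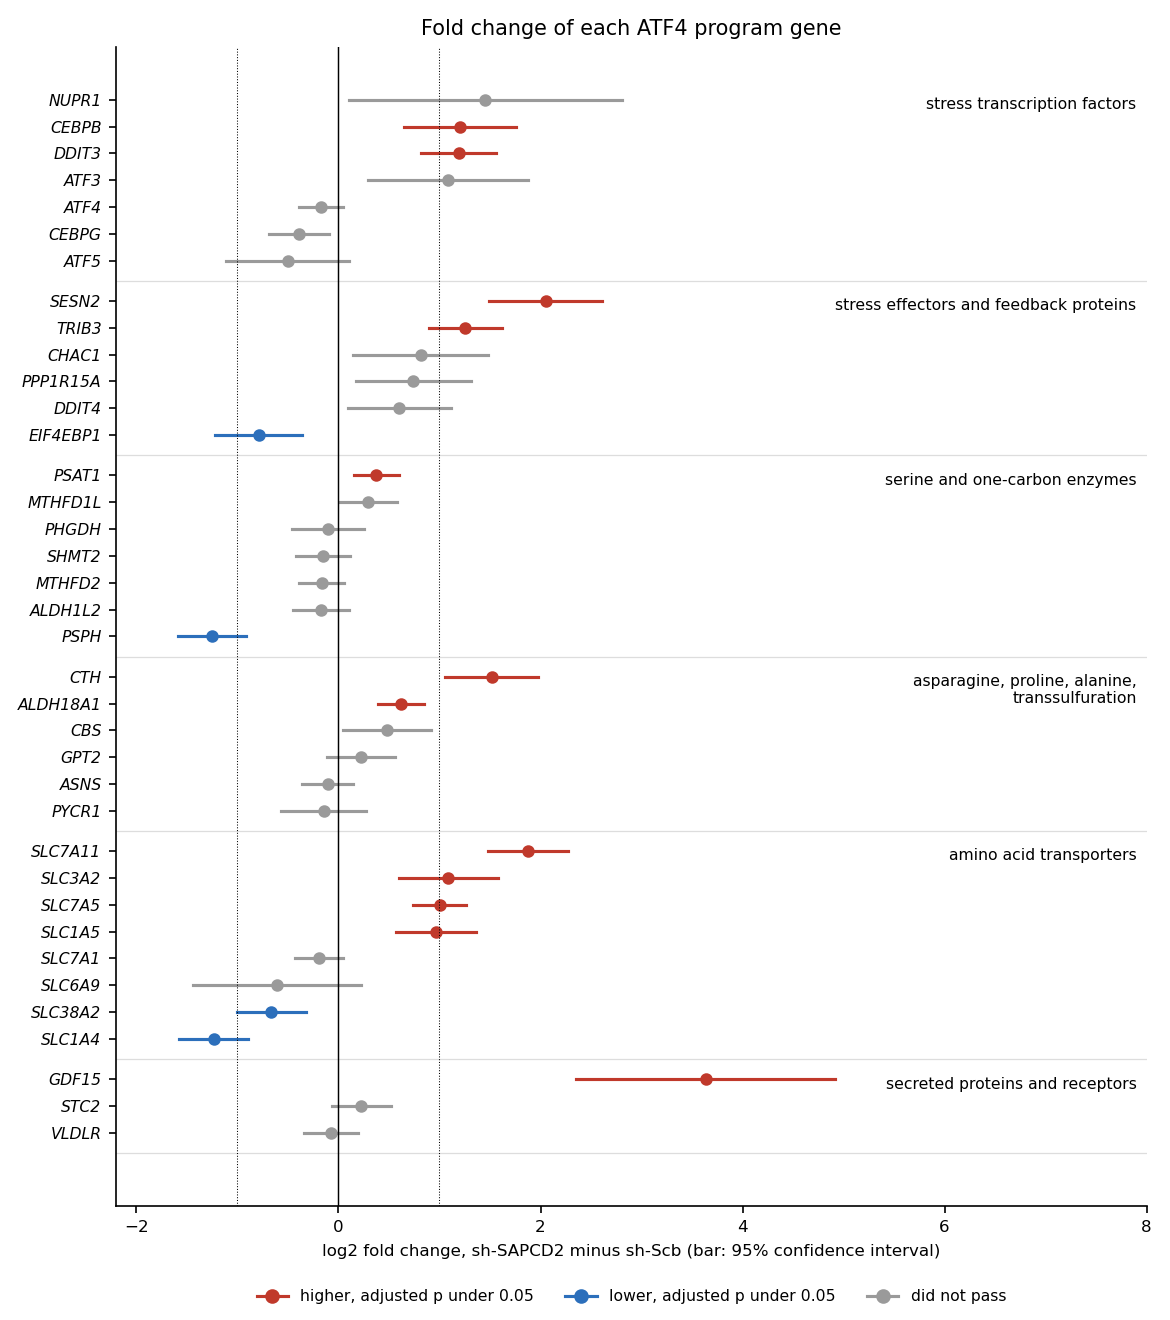
Log2 fold change of each of the 37 genes (sh-SAPCD2 minus sh-Scb) with its 95% confidence interval, ordered within role groups and colored by whether the gene rose, fell or did not pass. Dotted lines mark a log2 fold change of 1 either way. Of the serine and one-carbon enzymes, PSPH lies at -1.25 and the others run from -0.17 (ALDH1L2) to 0.38 (PSAT1, which rose). Of the 8 transporters, 4 rose and 2 fell, where 12.4% and 12.5% of all tested genes did.

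Of the 6 enzymes for asparagine, proline, alanine and cysteine, CTH and ALDH18A1 rose (33.3%, against 12.4% of all tested genes) and 4 did not pass. CTH (chr1:70411218-70439851), which releases cysteine from cystathionine in the last step of transsulfuration, was at 3.48 and 3.63 CPM in the control group and at 9.56 and 10.8 CPM in the knockdown group. It rose 2.86-fold (log2 fold change 1.51, SE 0.188, adjusted p = 0.00506). CBS, the enzyme one step before it, was at 72.7 and 81.0 CPM against 88.5 and 125 CPM (log2 fold change 0.48, adjusted p = 0.103). CBS has a second annotated copy on chromosome 21 (chr21:6444869-6467513), the canonical transcript of which differs from that of CBS in 1 of 2495 bases, so reads cannot be told apart with certainty. With the counts of both copies summed, an alternative chosen after the values were seen, the log2 fold change was 0.46 (adjusted p = 0.0718). CBS passed without sh-SAPCD2 1 (0.70, adjusted p = 0.00193).

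ALDH18A1 (chr10:95605941-95656711, minus strand), which starts proline synthesis from glutamate, was at 174 and 171 CPM against 266 and 263 CPM and rose 1.54-fold (log2 fold change 0.62, SE 0.0923, adjusted p = 0.00764). Its groups were far apart for their spread, yet the call was lost without sh-Scb 1 (adjusted p = 0.137) and without sh-Scb 2 (adjusted p = 0.155), fits in which a lone control library is assumed to vary like the knockdown libraries. PYCR1, the last enzyme of the same pathway, was at 148 and 158 CPM against 114 and 162 CPM (log2 fold change -0.15, adjusted p = 0.565). The 2 knockdown libraries of PYCR1 lay on either side of the controls: the difference was 0.08 without sh-SAPCD2 1 and -0.42 without sh-SAPCD2 2 (adjusted p = 0.299 and 0.00427).

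ASNS, asparagine synthetase, a classical ATF4 target with the core in the promoter window shown above, was at 87.1 and 93.2 CPM in the control group and at 85.5 and 81.9 CPM in the knockdown group. The log2 fold change was -0.11 (95% confidence interval -0.36 to 0.15, adjusted p = 0.489), so that the interval leaves out a change the size of that in TRIB3 or CTH. GPT2, the mitochondrial alanine transaminase, was at 92.5 and 93.8 CPM against 95.6 and 122 CPM (0.22, adjusted p = 0.284), and it passed without sh-SAPCD2 1 (0.38, adjusted p = 0.00213).

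Of the 8 transporters, the largest role group, 4 rose (50%) and 2 fell (25%), where 12.4% and 12.5% of all tested genes did. SLC7A11 (chr4:138164097-138242349, minus strand), the xCT subunit that imports cystine in exchange for glutamate, was at 33.2 and 35.2 CPM in the control group and at 144 and 108 CPM in the knockdown group. It rose 3.68-fold (log2 fold change 1.88, SE 0.163, adjusted p = 0.00263). It was the 1 member that also passed a test against an absolute log2 fold change of 1 rather than of 0 (adjusted p = 0.0367). The knockdown library with fewer counts had the higher value, the reverse of the order in SLC3A2, CEBPB and DDIT4.

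SLC3A2, the 4F2 heavy chain that carries both xCT and LAT1 to the membrane, was at 88.6 and 73.2 CPM against 139 and 204 CPM and rose 2.13-fold (log2 fold change 1.09, SE 0.202, adjusted p = 0.0143). SLC7A5, the LAT1 subunit that exchanges large neutral amino acids such as leucine, was at 189 and 185 CPM against 348 and 401 CPM and rose 2.00-fold (log2 fold change 1.00, SE 0.109, adjusted p = 0.00378). SLC1A5, a glutamine and neutral amino acid exchanger, was at 92.8 and 101 CPM against 160.2 and 218 CPM and rose 1.95-fold (log2 fold change 0.96, SE 0.163, adjusted p = 0.0111). SLC7A5 thus lay just inside the DEG threshold and SLC1A5 just outside it.

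On the per-length scale the 3 partner chains were at 42.9 (SLC3A2), 41.1 (SLC7A5) and 3.54 (SLC7A11) CPM per kb of canonical transcript in the control group. In the knockdown group they were at 91.2, 82.2 and 13.04 CPM per kb. The heavy chain and LAT1 were close in level in both groups, and xCT was the least abundant of the 3 in both. SLC3A2 did not pass without a filter on low counts (adjusted p = 0.059), and SLC7A11, SLC7A5 and SLC1A5 passed in all 12 alternatives. Antisense genes overlap 23.8% of the exonic bases of SLC1A5 and 8.97% of those of SLC7A11, the latter by SLC7A11-AS1 (0.544 and 1.30 CPM as group means).

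SLC1A4 (chr2:64988477-65023865), an exchanger of serine, alanine and cysteine from the same family as SLC1A5, was at 24.8 and 23.7 CPM in the control group and at 10.1 and 10.5 CPM in the knockdown group. It fell to 42.5% of the control level (log2 fold change -1.23, SE 0.140, adjusted p = 0.00416) and passed in all 12 alternatives. SLC38A2 (chr12:46358188-46372773, minus strand), the sodium-coupled importer of small neutral amino acids known as SNAT2, was at 318 and 328 CPM against 230.2 and 178 CPM and fell to 63.2% of the control level (log2 fold change -0.66, SE 0.141, adjusted p = 0.0209). The fall in SLC38A2 was lost without sh-Scb 1 (adjusted p = 0.0755), without sh-Scb 2 (adjusted p = 0.103) and without a filter on low counts (adjusted p = 0.0703).

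SLC7A1, the CAT-1 importer of arginine and lysine, was at 105 and 105 CPM against 91.9 and 91.0 CPM (log2 fold change -0.20, adjusted p = 0.192). It passed without sh-SAPCD2 1 (-0.21, adjusted p = 0.0151) and without sh-SAPCD2 2 (-0.19, adjusted p = 0.026). SLC6A9, a glycine transporter, was at 2.68 and 4.47 CPM against 1.94 and 2.74 CPM (-0.61, adjusted p = 0.24), with overlapping groups at a low level.

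Of the 3 secreted proteins and receptors, GDF15 rose (33.3%, against 12.4% of all tested genes) and STC2 and VLDLR did not pass. GDF15 (chr19:18374731-18389176), a stress-induced cytokine of the TGF-beta family, had 4 and 14 counts in the sh-Scb libraries, against 84 and 153 in the knockdown group, or 0.145 and 0.509 CPM against 3.32 and 4.87 CPM. It had the largest log2 fold change of the 37 genes, 3.63 (95% confidence interval 2.36 to 4.91, adjusted p = 0.00713), and the few counts in the control group leave its size uncertain. GDF15 passed in all 12 alternatives, with a log2 fold change from 2.999 to 4.78. STC2, a secreted glycoprotein of the stress response, was at 34.5 and 33.7 CPM against 38.6 and 41.2 CPM (0.23, adjusted p = 0.216). VLDLR, a lipoprotein receptor, was at 84.8 and 87.3 CPM against 85.9 and 77.4 CPM (-0.08, adjusted p = 0.646), and its groups overlapped.

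Calls were counted in members with and without the core shown above. Over all tested genes, 12.4% rose and 12.5% fell. Of the 9 members with a core in a window, SLC1A5 and SLC3A2 rose, SLC1A4 fell and 6 did not pass, with a median log2 fold change of 0.29. Of the 20 members with a window and no core, 9 rose, 1 fell and 10 did not pass, with a median of 0.54. Whether members with and without the core differed was not tested. SLC1A4 and SLC1A5 had the core TGATGCAA, on opposite strands relative to the gene, and moved in opposite directions. A gene can have several starts, each with a window, and the fold changes are per gene and not per start. The SLC1A5 core lay 97 bases before a start inside the gene (core chr19:46784904-46784911, gene chr19:46774883-46788594, minus strand). That of SLC3A2 lay 38 bases after a start inside the gene (core chr11:62881736-62881743, gene chr11:62856004-62888880). The SLC1A4 core lay 7 bases before a start inside the gene (core chr2:64989392-64989399, gene chr2:64988477-65023865). Cores of ASNS, CEBPG, CHAC1, MTHFD1L and SLC7A1 also lay within the annotated gene, and that of ATF3 lay before it. ASNS and SLC7A1, both with TGATGAAA, did not pass.

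The 2 libraries of the knockdown group differed more than those of the control group. Over the 36 members with a mean of at least 1 CPM, the median size of the log2 ratio of replicate 2 to replicate 1 was 0.0651 among controls and 0.221 after knockdown, and over 15659 genes with the same minimum it was 0.0909 and 0.258. In the knockdown group this ratio was larger at a higher GC content of the canonical transcript (Pearson's r = 0.714 over 36 members and 0.569 over 14667 genes, each a description over genes of the same 2 libraries), and in the control group r was 0.0601 and -0.0298. CEBPB (66.2% GC) was higher in sh-SAPCD2 2, and SLC7A11 (35.4% GC) was higher in sh-SAPCD2 1. With each library corrected for GC content and length, all 16 calls remained and 9 members were added, among them PHGDH (-0.25), SHMT2 (-0.25) and PYCR1 (-0.44) as lower and MTHFD1L (0.30) and CBS as higher. Calls also grew over all tested genes with this correction, from 2326 to 3827 that rose and from 2339 to 3664 that fell. The correction took CEBPB from 1.20 to 0.80 and EIF4EBP1 from -0.79 to -1.12.

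**Figure D4:**
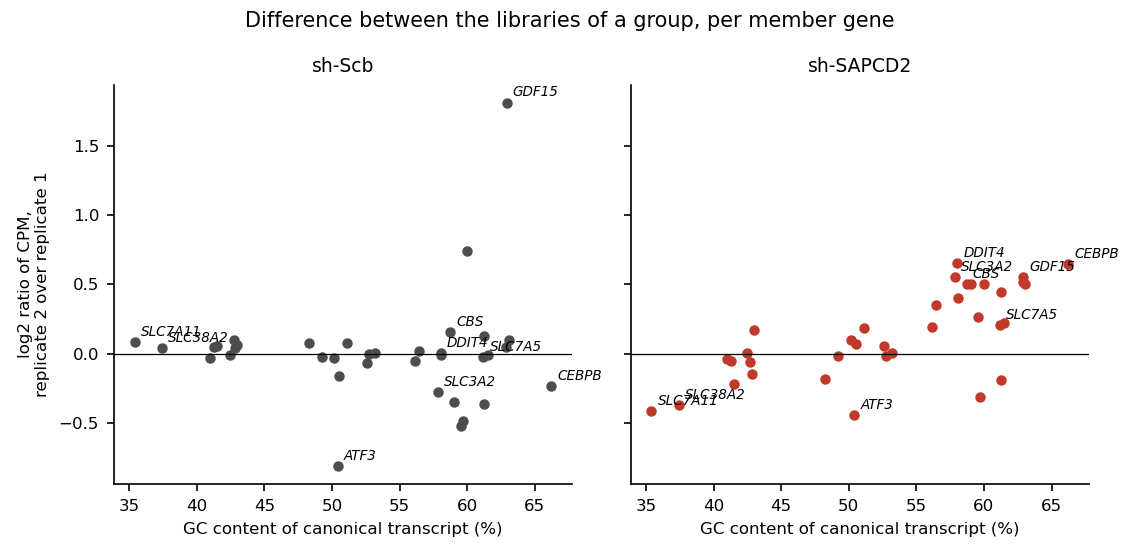
Log2 ratio of CPM between the libraries of a group (replicate 2 over replicate 1) against the GC content of the canonical transcript in percent, for the 36 members with a mean of at least 1 CPM, with the control group in the left panel and the sh-SAPCD2 group in the right panel. The points slope upward in the sh-SAPCD2 group (r = 0.714) and not in the control group (r = 0.0601).

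Other genes of the same pathways were counted in lists put together from general knowledge, 146 genes of which 137 were tested. Of these 27 (19.7%) rose and 20 (14.6%) fell, where 12.4% and 12.5% of all tested genes did, with a median log2 fold change of 0.03. The share that rose was near or under that of all genes in the lists of eIF2 genes, one-carbon enzymes and ATF, CREB and C/EBP factors. The count of genes that rose went down to 12 without sh-Scb 1 and 10 without sh-Scb 2, and up to 44 without sh-SAPCD2 1. The count of genes that fell was 8 without either control library, 38 without sh-SAPCD2 1 and 33 without sh-SAPCD2 2. The counts of the single lists below shifted in the same way, so each is given with its lowest and highest value with 1 library left out and with its share of the list in percent, the lowest value without a control library and the highest without a knockdown library.

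Upstream of ATF4, 2 of 18 genes (11.1%) for eIF2 kinases and their regulators, eIF2, eIF2B, the eIF2 phosphatase and EIF2A rose and 5 (27.8%) fell, 1 of these being DELE1, which relays mitochondrial stress to an eIF2 kinase (-0.51, adjusted p = 0.0247). These counts ran from 0 to 4 and from 1 to 7. EIF2B2, a subunit of eIF2B, was at 35.3 and 36.0 CPM in the control group and at 13.04 and 12.6 CPM in the knockdown group (log2 fold change -1.48, adjusted p = 0.00264). Antisense genes overlap 23.6% of the exonic bases of EIF2B2. EIF2AK1, the heme-regulated eIF2 kinase HRI, fell from 242 to 166 CPM (-0.54, adjusted p = 0.0129), and PPP1R15B, the constitutive partner of the eIF2 phosphatase, rose from 140 to 232 CPM (0.73, adjusted p = 0.00866). The calls on EIF2AK1 and PPP1R15B were lost when either sh-Scb 1 or sh-Scb 2 was left out, and that on EIF2B2 was not. Of 18 other factors of the ATF, CREB and C/EBP families, 1 rose (0 to 4, 5.56%) and 1 fell (0 to 6, 5.56%): CREB3 rose (0.86, adjusted p = 0.00699) and CREB1 fell (-0.62, adjusted p = 0.0363), both lost without either control library, and CREBZF had the next smallest p (-0.33, adjusted p = 0.051).

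Of 22 other one-carbon and glycine enzymes, 3 rose (1 to 4, 13.6%) and 5 fell (3 to 8, 22.7%), with a median log2 fold change of -0.07. Thymidylate synthase, TYMS, fell from 72.7 to 31.3 CPM (-1.21, adjusted p = 0.0033), and antisense genes overlap 47.9% of its exonic bases. The cytosolic serine hydroxymethyltransferase SHMT1 fell from 21.98 to 8.12 CPM (-1.43, adjusted p = 0.00406). The mitochondrial SHMT2, in contrast, had not passed, at -0.15. Whether the 2 differed was not tested. ALDH1L1 and FTCD, folate enzymes best known from liver, rose at low levels (1.20 to 2.82 and 0.272 to 0.920 CPM, adjusted p = 0.0244 and 0.0363), and both calls were lost without sh-Scb 1 or sh-Scb 2, that on FTCD also with DESeq2 or without either knockdown library.

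Of 19 other enzymes of amino acid metabolism, 5 rose (2 to 8, 26.3%) and 3 fell (1 to 7, 15.8%). The consecutive urea cycle enzymes ASS1 and ASL, which make arginine from citrulline, rose together: ASS1 from 39.7 to 99.5 CPM (log2 fold change 1.33, adjusted p = 0.00317) and ASL from 17.6 to 43.4 CPM (1.30, adjusted p = 0.00498). ASRGL1, an asparaginase-like hydrolase, fell from 34.6 to 17.0 CPM (-1.02, adjusted p = 0.00574). Of 13 genes of the methionine cycle, of glutathione synthesis and breakdown and of sulfide handling, 4 rose (1 to 6, 30.8%) and 3 fell (1 to 5, 23.1%). Those that rose include the sulfur enzymes MPST and SQOR, and those that fell include CHAC2, which breaks glutathione down (-0.86, adjusted p = 0.0246). GCLC, the catalytic subunit of the enzyme that limits glutathione synthesis, rose from 68.4 to 107 CPM (0.64, adjusted p = 0.0105), a call lost without sh-Scb 1 or sh-Scb 2, and MPST, which handles sulfur from cysteine, rose from 132 to 260 CPM (0.98, adjusted p = 0.0133). AHCYL1, named for its likeness to the enzyme that splits adenosylhomocysteine, fell from 178 to 98.0 CPM (-0.86, adjusted p = 0.00406).

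Of 24 other amino acid transporters, 6 rose (2 to 9, 25%) and 1 fell (1 to 2, 4.17%), with a median log2 fold change of 0.29. SLC7A8, the LAT2 subunit that also pairs with SLC3A2, was at 2.39 and 3.16 CPM in the control group and at 11.0 and 11.97 CPM in the knockdown group (2.05, adjusted p = 0.00357). The taurine transporter SLC6A6 rose from 108 to 223 CPM (1.04, adjusted p = 0.00284), and SLC43A2, an exporter of neutral amino acids, from 1.34 to 3.47 CPM (1.37, adjusted p = 0.0175, lost without sh-Scb 2).

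Of 23 genes of mTORC1 and its amino acid sensors, 6 rose (3 to 11, 26.1%) and 2 fell (1 to 4, 8.70%), with a median of 0.33. The genes that rose include both negative regulators of mTORC1 (DEPTOR, CASTOR1, SESN3 and SAMTOR) and its activators RHEB (0.49, adjusted p = 0.0428) and RRAGD (0.94, adjusted p = 0.00805), and MTOR itself was among the 2 that fell (-0.44, adjusted p = 0.0312). DEPTOR, an mTOR-binding inhibitor, was at 14.4 and 15.2 CPM against 48.2 and 44.7 CPM (1.65, adjusted p = 0.00218), the arginine sensor CASTOR1 at 2.61 and 3.42 CPM against 9.40 and 9.11 CPM (1.62, adjusted p = 0.00591), and SESN3, a sestrin like SESN2, at 334 and 333 CPM against 895 and 685 CPM (1.24, adjusted p = 0.00417). An annotated gene on the same strand overlaps 46.0% of the exonic bases of CASTOR1. EIF4EBP2, a close relative of EIF4EBP1, fell from 242 to 118 CPM (-1.03, adjusted p = 0.00376). Both EIF4EBP1 and EIF4EBP2 thus had lower levels in SAPCD2-knockdown cells.

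**Figure D5:**
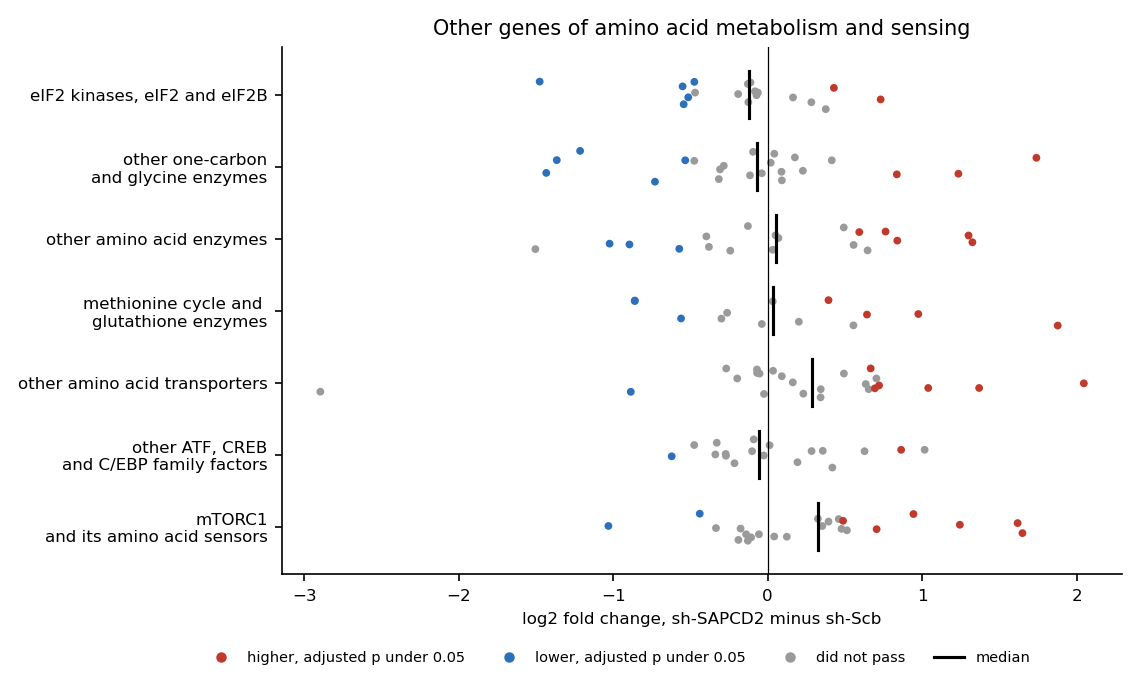
Log2 fold change (sh-SAPCD2 minus sh-Scb) of each tested gene in the 7 lists of other pathway genes, colored by whether it rose, fell or did not pass, with the median of each list as a black bar. Medians run from -0.12 (eIF2 kinases, eIF2 and eIF2B) to 0.33 (mTORC1 and its amino acid sensors), and every list holds genes that rose and genes that fell.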

How the data were processed

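Paired-end reads of 150 bp were mapped by the authors with HISAT2 2.2.0 on hg38, StringTie gave abundances, and whole-number counts per Ensembl gene were deposited without scaling for library size. Not given in the sources used here are the step from coverage to counts, the annotation release, whether strand was used and what was done with reads of several matches. Groups came from the labels. The counts of all 4 libraries were fitted together in edgeR 4.0.16 (R 4.3.3) with TMM factors, condition as the single term and the quasi-likelihood test, after filterByExpr (minimum count 10, minimum total 15). P-values were adjusted by Benjamini-Hochberg over 18779 genes (biological coefficient of variation 15.4%). A gene rose or fell at an adjusted p under 0.05. CPM are TMM-scaled, and positions, transcript lengths and exon overlap came from GENCODE 44 on hg38. The fit was checked on simulated data before use. Alternatives were DESeq2 1.42.0 (test, and size factors alone), library totals, other filters, the replicate block, a loess correction for GC content and length, and each library left out.

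The members and lists were chosen with earlier results of these data known. All 37 members are named, and of each other list the 5 DEGs with the smallest p, or the first 3 genes where fewer than 3 were DEGs. A few further genes are not reported here. MARS1, MBD6 and SLC7A11-AS1 were named after their values were seen, because they overlap members, and DELE1, CHAC2, SQOR, RHEB, RRAGD, SAMTOR and MTOR after theirs, to show what the counts of their lists hold.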

Additional observations from a re-analysis of the deposited data

How the results depend on the processing

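Of the 12 members that rose, DDIT3, TRIB3, SESN2, CTH, SLC7A11, SLC7A5, SLC1A5 and GDF15 kept their call in all 12 alternatives, as did PSPH and SLC1A4 of the 4 that fell, and no called member changed direction. With 2 libraries a group, calls just past the threshold depend on 1 library. Without a filter on low counts, 1081 genes rose (553 with an absolute log2 fold change over 1) and 1180 fell, 2 members fell, and 12 other pathway genes fell. With the GC content and length correction, 3827 genes rose and 3664 fell, 8 members fell, and 44 other pathway genes rose and 32 fell. With that correction and the replicate block together, these counts were 3828, 3611, 9, 44 and 31. ASNS turned to 0.022 with either correction, and without sh-SAPCD2 1 PHGDH turned to 0.081 (-0.31 without sh-SAPCD2 2) and PYCR1 to 0.076 (-0.42 without sh-SAPCD2 2). The cause of these shifts was not tested. When edgeR tested against a log2 fold change of 1, 1 member was higher (SLC7A11) and 0 were lower, where 9 and 2 had passed both thresholds of the usual rule. The next smallest adjusted p-values of members in that test were 0.0603 (SESN2), 0.0645 (GDF15) and 0.166 (CTH). Of the members with a negative fold change, PSPH had the smallest (0.381).

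Leaving out 1 library at a time gave 1176 to 4396 genes that rose and 1146 to 4014 that fell, with 705 to 1323 and 841 to 1205 DEGs. Among members, 10 to 17 rose and 3 to 11 fell, with 7 to 10 and 2 to 3 DEGs. Among other pathway genes 10 to 44 rose and 8 to 38 fell. The median was 0.20 to 0.38 over members and -0.05 to 0.08 over other pathway genes.

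The libraries share replicate numbers, and nothing in the labels ties them. How far libraries of 1 number lay from the mean of their group was uncorrelated between groups (r = -0.0188). With 2 libraries a group, this value cannot show whether libraries of 1 number were prepared together, which is not known. With the replicate block, 15 members rose and 4 fell: PSAT1 was lost and ATF3, DDIT4, PPP1R15A and CBS were added, as they were with DESeq2. Over all genes 2860 rose and 2701 fell with the block.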
